A study of Mus musculus with 6 samples.

Results

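The abundance of 10 genes of thermogenic fat that are linked to PRDM16 was read in RNA-seq of the mouse abdominal aorta: *Ucp1*, *Cidea*, *Dio2*, *Cox7a1*, *Cox8b*, *Elovl3*, *Ppargc1a*, *Cpt1b*, *Zic1* and *Ebf2*. The genes were chosen by symbol, as the 10 rows with these names among 55426 genes in the deposited table. The choice used no rule on measured values, but earlier results of these data were known when it was made. The table holds 6 libraries of polyadenylated RNA from male C57BL/6J mice, 3 labelled control and 3 labelled *Prdm16* knockout, with 151 bp paired reads. Control mice carried *Myh11*-CreERT2, and Prdm16SMKO mice carried *Myh11*-CreERT2 with *Prdm16* fl/fl. For the aneurysm model the methods give tamoxifen at 75 mg/kg/day for 5 days to males aged 8 to 10 weeks, which were used 2 weeks later. They do not give the schedule of the mice used for RNA-seq. The age at RNA collection is not given in the sources used here. The Cre is driven by the promoter of the smooth muscle myosin gene *Myh11* and sits on the Y chromosome. Recombination was thus directed at smooth muscle cells. Whether it also took place in cells of the surrounding fat is not given in the sources used here. No source used here says whether each library came from 1 mouse or whether the surrounding fat was removed, so p-values measure only the spread between these libraries.

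PRDM16 is a transcriptional regulator that promotes the brown and beige adipocyte programme, in which fat cells burn fuel to produce heat. Heat is made when uncoupling protein 1 lets protons leak across the inner mitochondrial membrane, and the programme also supplies the respiratory chain, fatty acid import and thyroid hormone activation that feed this leak. The aorta is wrapped in perivascular fat, part of which has brown features in the mouse. In bulk tissue, fewer cells of a type and less RNA per cell cannot be told apart, so each gene was read against the amount of adipocyte RNA in its own library.

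The values are TPM (transcripts scaled for gene length and to the same total in every library), so levels can be set side by side between genes. The labels give an average of 40 M read pairs, and the depth of each library is unknown. The libraries listed 20332 to 22100 genes above 0, and mitochondrial genes took 15.8 to 27.4% of the TPM. Ribosomal RNA genes took 15.6% in control 2 to 31.4% in control 3, and 29.9% in Prdm16SMKO 2. These shares count in the fixed total, so they also move the TPM of other genes between libraries. A rescaling without both kinds of gene is among the alternatives given at the end. The targeted gene *Prdm16* was listed at 33.42, 36.83 and 30.77 TPM in controls 1 to 3 and at 20.75, 27.67 and 14.77 TPM in Prdm16SMKO 1 to 3. Its groups did not overlap, and its log2 fold change of -0.70 (SE 0.23) did not pass the test (limma adjusted p = 0.376). A gene-level value can also include reads from exons outside the floxed part. Smooth muscle markers, led by *Acta2* and *Tagln*, were present in every library, with all 10 above 0 and a summed level between 12040 and 26107 TPM.

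Promoter sequences are shown for genes that moved together between libraries and for *Dio2*, which moved less. They come from the RefSeq table for GRCm38.p6 and run from 250 bases before to 50 bases after the start of transcription, 5′ to 3′ on the strand of the gene. The windows of 6 of the 10 genes were read, *Cpt1b*, *Elovl3* and *Ebf2* were not in the table, and the promoter of *Cidea* was not analysed here. The windows of *Ucp1* (chr8:83290098-83290397, plus strand), *Cox7a1* (chr7:30183921-30184220, plus strand), *Cox8b* (chr7:140900397-140900696, minus strand) and *Dio2* (chr12:90738989-90739288, minus strand) read:
Ucp1: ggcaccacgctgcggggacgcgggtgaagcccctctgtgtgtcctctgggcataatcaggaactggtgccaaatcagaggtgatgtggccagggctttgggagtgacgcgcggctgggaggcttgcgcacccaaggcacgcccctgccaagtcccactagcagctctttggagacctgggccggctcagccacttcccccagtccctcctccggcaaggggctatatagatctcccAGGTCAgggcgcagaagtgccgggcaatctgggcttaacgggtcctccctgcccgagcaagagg
Cox7a1: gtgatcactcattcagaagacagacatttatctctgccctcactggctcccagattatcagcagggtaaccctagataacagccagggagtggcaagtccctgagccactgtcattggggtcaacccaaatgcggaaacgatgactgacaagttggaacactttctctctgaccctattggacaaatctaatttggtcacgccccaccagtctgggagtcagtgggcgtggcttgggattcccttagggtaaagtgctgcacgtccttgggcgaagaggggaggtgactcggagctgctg
Cox8b: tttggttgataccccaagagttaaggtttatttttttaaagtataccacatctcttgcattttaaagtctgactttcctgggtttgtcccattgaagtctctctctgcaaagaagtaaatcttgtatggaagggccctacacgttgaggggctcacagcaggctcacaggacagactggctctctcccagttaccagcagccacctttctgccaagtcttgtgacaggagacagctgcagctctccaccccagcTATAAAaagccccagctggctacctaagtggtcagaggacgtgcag
Dio2: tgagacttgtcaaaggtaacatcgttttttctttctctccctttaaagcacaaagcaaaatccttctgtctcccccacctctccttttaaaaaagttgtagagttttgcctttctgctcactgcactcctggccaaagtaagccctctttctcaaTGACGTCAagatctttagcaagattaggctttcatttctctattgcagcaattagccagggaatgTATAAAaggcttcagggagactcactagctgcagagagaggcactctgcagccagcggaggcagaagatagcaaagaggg
Capitals mark matches to 5 short motifs, searched on both strands. The core bound by EBF factors was CCCNNGGG, and the cyclic AMP response element was TGACGTCA. The PPAR DR1 element is a direct repeat of the nuclear receptor half-site AGGTCA with 1 base of any kind between the copies. The half-site alone and a TATA box were added after the sequences were seen. Counted from 0 at the start of transcription, *Ucp1* held the half-site at -14, *Cox8b* held the TATA box at 4, and *Dio2* held the cyclic AMP response element at -95 and the TATA box at -30. *Cox7a1* held none of them in this window. The *Dio2* window lies wholly outside the gene position given below, which comes from another annotation. Its motif positions hold only for the start of transcription used for the window. The TATA box was searched as TATAAA. Of 32851 mouse promoters of the same length, 13.7% held the EBF core, 0.0396% the DR1 element, 1.79% the cyclic AMP response element, 16.3% the half-site and 13.6% the TATA box. The windows of *Ppargc1a* and *Zic1* also held none of the 5.

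Of the 10 genes 8 had a mean of at least 0.5 TPM in these aortas, and several of them differed widely between libraries of the same genotype. *Ucp1* (ENSMUSG00000031710, chr8:83290352-83298452) was listed at 49.01, 12.9 and 11.84 TPM in controls 1 to 3 and at 23.37, 0 and 169.5 TPM in Prdm16SMKO 1 to 3. Prdm16SMKO thus held both the highest and the lowest library, and the control values lay between them. *Cidea* (ENSMUSG00000024526, chromosome 18), which encodes a lipid droplet protein of brown fat, was the most abundant of the 10 genes, with a mean of 96.9 TPM over all libraries. It was listed at 109.62, 60.16 and 35.79 TPM in controls and at 62.49, 5.09 and 308.01 TPM in Prdm16SMKO mice, a 60.5-fold range. Again Prdm16SMKO 3 was highest and Prdm16SMKO 2 lowest.

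Both subunits of cytochrome c oxidase on the list were also highest in Prdm16SMKO 3 and lowest in Prdm16SMKO 2. *Cox7a1* (ENSMUSG00000074218, chr7:30184144-30186078) and *Cox8b* (ENSMUSG00000025488, chr7:140898945-140900446) encode the forms of these subunits used by brown fat and striated muscle. *Cox7a1* was listed at 28.33, 10.7 and 10.65 TPM in controls and at 9.8, 0 and 69.96 TPM in Prdm16SMKO mice. *Cox8b* was listed at 86.95, 26.49 and 21.26 TPM in controls and at 33.23, 6.14 and 178.97 TPM in Prdm16SMKO mice. *Cpt1b* (ENSMUSG00000078937, chr15:89416405-89425863), the brown fat and muscle form of the enzyme that admits long-chain fatty acids to mitochondria, was listed at 12.83, 6.73 and 4.11 TPM in controls and at 7.63, 1.77 and 34.73 TPM in Prdm16SMKO mice. In each of these 3 genes control 1 was the second highest library, after Prdm16SMKO 3.

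The regulators and the deiodinase varied less. *Dio2* (ENSMUSG00000007682, chr12:90724552-90738438), which converts thyroxine to the active hormone, was listed at 8.32, 9.79 and 11.24 TPM in controls and at 6.86, 6.85 and 14.27 TPM in Prdm16SMKO mice, a 2.08-fold range. *Ppargc1a* (ENSMUSG00000029167, chr5:51454250-51567726), a coactivator of mitochondrial biogenesis, was listed at 1.67, 1.2 and 1.07 TPM in controls and at 1.92, 1.09 and 4.46 TPM in Prdm16SMKO mice. *Ebf2* (ENSMUSG00000022053, chr14:67233292-67430918), a transcription factor of brown and beige precursors, was listed at 2.19, 1.74 and 1.75 TPM in controls and at 2.16, 2.19 and 3.5 TPM in Prdm16SMKO mice. In all 3 genes Prdm16SMKO 3 was highest. Prdm16SMKO 2 was the lowest library only for *Dio2*, where it was level with Prdm16SMKO 1.

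The remaining 2 genes were at or near 0 and stayed below the minimum mean of 0.5 TPM that the test across genes required. *Elovl3* (ENSMUSG00000038754, chr19:46131897-46135694), a fatty acid elongase that cold induces in brown fat, was listed at 0.17, 0.1 and 0.34 TPM in controls and at 0, 0 and 0.82 TPM in Prdm16SMKO mice. *Zic1* (ENSMUSG00000032368, chr9:91358058-91365810), a transcription factor that marks classical brown adipocytes, was listed at 0.07 TPM in Prdm16SMKO 3 and at 0 in the other 5 libraries. Prdm16SMKO 3 was therefore the highest library for all 10 genes, and the groups overlapped for all 10. Over all genes tested the groups did not overlap for 12.8%, so 0 of 10 is close to the background.

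**Figure D1:**
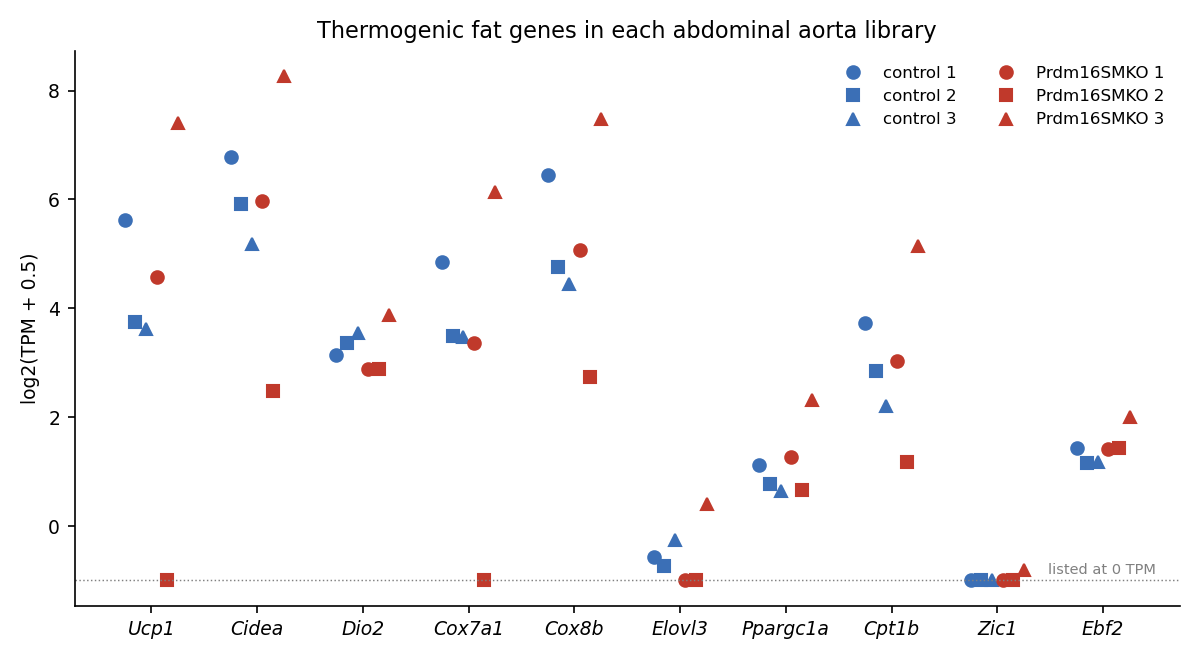
Level of each of the 10 genes in each library, as log2(TPM + 0.5) on the y axis, with controls in blue, Prdm16SMKO in red and a marker shape for each replicate number. Prdm16SMKO 3 is highest for every gene, and Prdm16SMKO 2 is listed at 0 for *Ucp1* and *Cox7a1*, where *Ucp1* reaches 169.5 TPM in Prdm16SMKO 3.

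The first comparison asked whether loss of *Prdm16* in smooth muscle changed these genes. None of them passed the test for a difference between genotypes. Of the 8 genes above the minimum, 0 were called at an adjusted p under 0.05 and 0 had an unadjusted p under 0.05, where 0.355% of 15775 genes were called and 8.74% had an unadjusted p under 0.05. Log2 fold changes, Prdm16SMKO minus control on the log2(TPM + 0.5) scale, were higher for 3 and lower for 5 genes, and their median was -0.13 against 0.02 over all genes tested.

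*Ucp1* had a log2 fold change of -0.67 (SE 1.74, 95% interval -4.63 to 3.29, adjusted p = 0.977). Its mean was 24.6 ± 21.2 TPM (SD, n = 3) in controls and 64.3 ± 91.9 TPM (SD, n = 3) in Prdm16SMKO mice, so the mean TPM and the mean log2 value differed in sign. The same held for *Cidea* (68.5 ± 37.6 against 125 ± 161 TPM, SD, n = 3 each, log2 fold change -0.39), *Cox7a1* (log2 fold change -1.10) and *Cox8b* (log2 fold change -0.12). For *Ucp1* and *Cox7a1*, each at 0 in 1 library, the log2 value also depended on the constant added: with 0.1 TPM in place of 0.5, *Ucp1* was -1.42 and *Cox7a1* was -1.86. The interval for *Cidea* ran from -3.10 to 2.33, that for *Cox7a1* from -4.41 to 2.20 and that for *Cox8b* from -2.47 to 2.23. These intervals leave changes of several fold in either direction unresolved.

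*Cpt1b* had a log2 fold change of 0.18 (SE 0.85, 95% interval -1.74 to 2.11). The intervals of the steadier genes were narrower. *Dio2* had a log2 fold change of -0.14 (SE 0.28, 95% interval -0.78 to 0.51), *Ebf2* of 0.36 (SE 0.25, 95% interval -0.21 to 0.93) and *Ppargc1a* of 0.57 (SE 0.41, 95% interval -0.35 to 1.499). Exact two-sided permutation tests of the TPM, which cannot go below p = 0.1 with 3 libraries against 3, gave p = 0.3 for *Ppargc1a* and *Ebf2*, p = 0.8 for *Ucp1*, *Cidea*, *Cox8b* and *Cpt1b*, and p = 1 for *Dio2*, *Cox7a1*, *Elovl3* and *Zic1*. Without Prdm16SMKO 2, the log2 fold change was 1.66 for *Ucp1*, 1.16 for *Cidea*, 0.81 for *Cox7a1* and 1.07 for *Cox8b*, and 0 of 8 genes were called. Over all genes 28 of 15740 were called without Prdm16SMKO 2. The calls also numbered 0 of 8 when each of the other 5 libraries was left out. Those fits called 5 to 61 genes in all. With so few calls over all genes, 0 of 8 is close to the background.

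**Figure D2:**
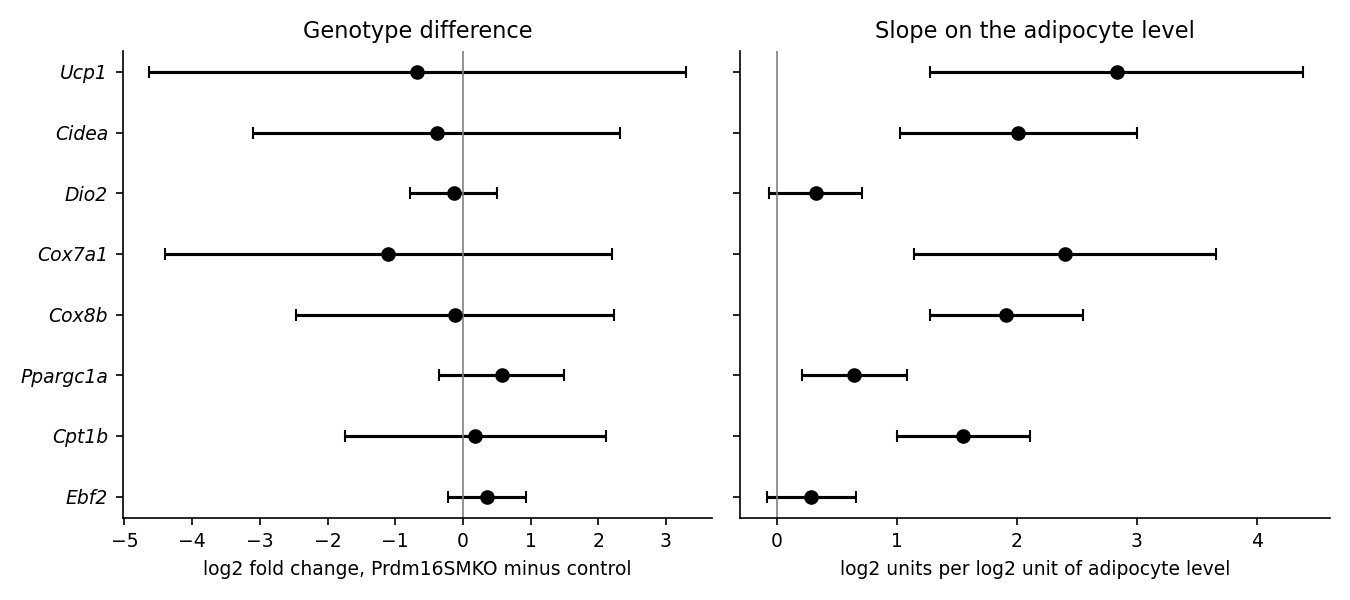
Estimates for the 8 tested genes, with points for the limma estimate and bars for its 95% interval. The left panel gives the log2 fold change between genotypes, where every bar crosses 0, and the right panel the slope on the adipocyte level, which is 2.83 for *Ucp1* and 0.29 for *Ebf2*.

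The amount of fat in the tissue differed between libraries. It was measured by the adipocyte level, the mean of log2(TPM + 0.5) over 15 adipocyte markers that include none of the 10 genes, such as *Adipoq*, the gene of adiponectin. The adipocyte level was 4.92, 4.03 and 3.73 in controls and 4.36, 4.16 and 6.16 in Prdm16SMKO mice. Prdm16SMKO 3 thus stood 5.37-fold above control 3, the lowest library, and control 1 stood 2.27-fold above it. All 15 markers were above 0 in every library, and their summed level ran from 518 to 1163 TPM in controls and from 824 to 2740 TPM in Prdm16SMKO mice. The groups overlapped, and the difference of 0.67 on the log2 scale did not pass an exact permutation test (two-sided p = 0.5). It was 0.04 without Prdm16SMKO 3. Of the 15 markers 14 were higher in Prdm16SMKO mice, where 54.2% of all genes were higher, and *Plin4* was lower (log2 fold change -0.33). None was called, close to the 0.355% of all genes. Their median difference was 0.75 log2 units against 0.02 over all genes. Prdm16SMKO 3 was the highest library for 14 of the 15, so the markers moved together and are not separate results.

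Across libraries, *Cox8b* and *Cpt1b* rose with the adipocyte level, and *Ucp1*, *Cidea* and *Cox7a1* had steeper slopes that did not pass the test across all genes. In a fit with genotype and the adipocyte level, *Cox8b* had a slope of 1.91 log2 units per log2 unit of adipocyte level (SE 0.28, adjusted p = 0.0230) and *Cpt1b* a slope of 1.56 (SE 0.25, adjusted p = 0.0329). So 2 of 8 genes were called with a positive slope, where 0.45% of all genes were. *Ucp1* had the steepest slope, 2.83 (SE 0.69, adjusted p = 0.192), followed by *Cox7a1* with 2.40 (SE 0.56, adjusted p = 0.167) and *Cidea* with 2.01 (SE 0.44, adjusted p = 0.131). *Ppargc1a* had a slope of 0.64 (SE 0.19, adjusted p = 0.401). These 6 genes, *Cox8b* and *Cpt1b* included, had a positive slope at an unadjusted p under 0.05, as did 3.47% of all genes. *Dio2* (slope 0.32, 95% interval -0.06 to 0.71) and *Ebf2* (slope 0.29, 95% interval -0.08 to 0.66) were not among them. The median slope was 1.73 over the 8 genes and -0.05 over all genes tested.

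The calls on the slope changed with the library left out, while the slopes of *Cox8b* and *Cpt1b* stayed positive. With 1 library left out, few libraries remain for a fit with genotype and the adipocyte level, so its p-values are unstable. For *Ucp1* the limma adjusted p ran from 8.5e-20 to 0.9998 over these fits. Without Prdm16SMKO 2, 5 of 8 genes were called (*Ucp1*, *Cidea*, *Cox7a1*, *Cox8b* and *Cpt1b*), where 0.858% of all genes were called with a positive slope, and the slope of *Ucp1* was 1.64 and that of *Cox8b* 1.47. The same 5 genes were called without control 1, where 0.589% of all genes were, and without Prdm16SMKO 1, where 1.44% were. Without control 2, control 3 or Prdm16SMKO 3, 0 of 8 were called, where 0.215%, 0% and 0.0443% of all genes were called with a positive slope. Without control 3 no gene in the table was called, so the 0 of 8 there is no result about these genes. The slopes without these libraries were 1.91, 1.96 and 1.99 for *Cox8b* and 1.58, 1.57 and 1.42 for *Cpt1b*. Neither gene was called with *Adipoq* alone as the measure of fat, with no genotype term or with median-of-ratios scaling.

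**Figure D3:**
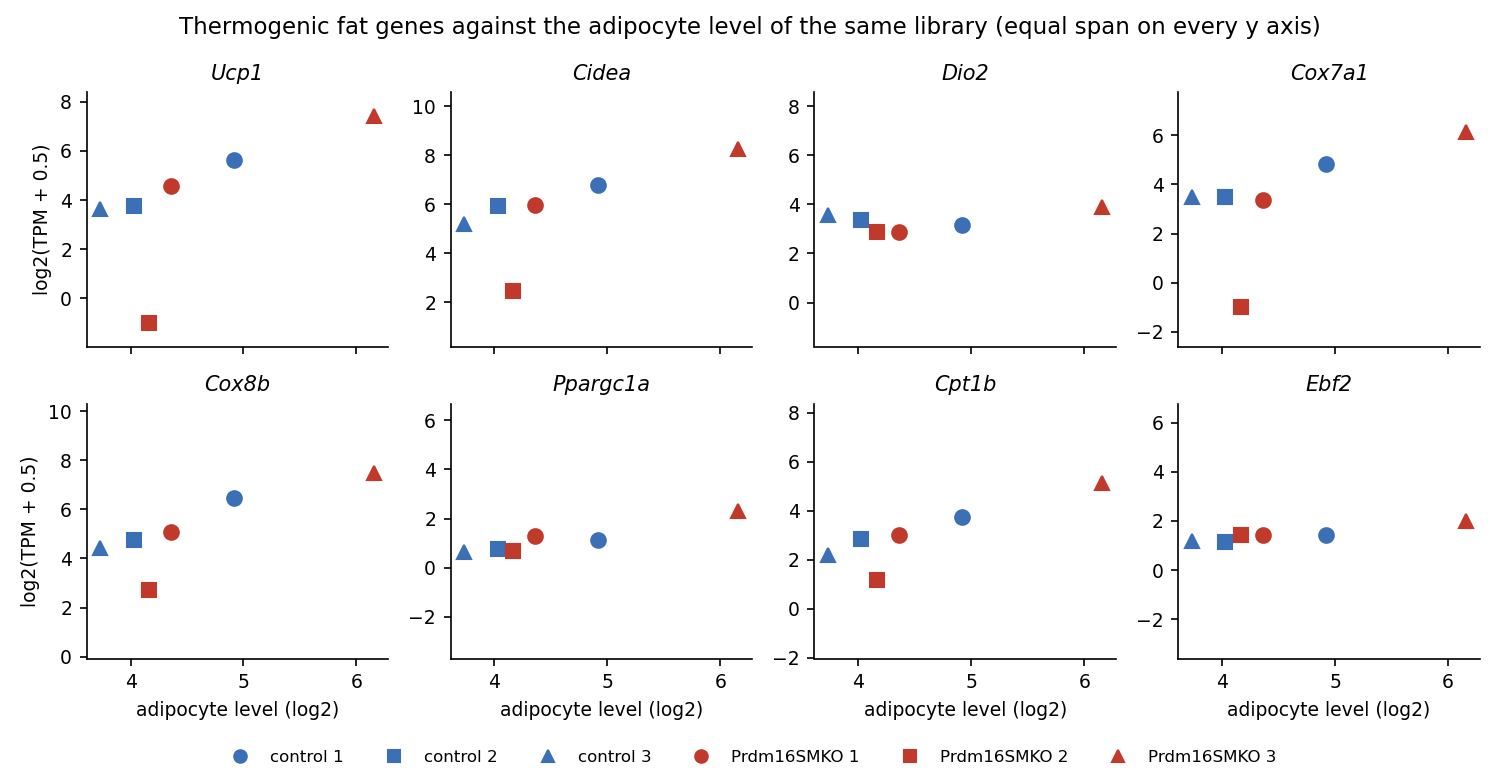
Level of the 8 tested genes, as log2(TPM + 0.5), against the adipocyte level of the same library, the mean log2(TPM + 0.5) of 15 adipocyte markers, with the same span on every y axis. *Ucp1*, *Cidea*, *Cox8b* and *Cpt1b* climb with the adipocyte level in 5 libraries. *Cox7a1* is level at 9.8 to 10.7 TPM in control 2, control 3 and Prdm16SMKO 1 and is higher in control 1 and Prdm16SMKO 3. For all 5 of these genes Prdm16SMKO 2, at an adipocyte level of 4.16, lies below the other libraries.

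Set against *Adipoq*, these 5 genes and *Ppargc1a* varied less than in TPM across 5 of the 6 libraries. The library left out of these ranges, Prdm16SMKO 2, was chosen after its values were seen. *Adipoq* itself was listed at 63.26, 26.95 and 21.51 TPM in controls and at 38.45, 44.96 and 181.77 TPM in Prdm16SMKO mice. For every 100 TPM of *Adipoq*, *Cidea* stood at 173, 223 and 166 TPM in controls and at 163, 11.3 and 169 TPM in Prdm16SMKO mice. Outside Prdm16SMKO 2 this ratio spanned 1.37-fold, against 8.61-fold for the TPM of *Cidea*. *Cpt1b* stood at 20.3, 25.0 and 19.1 TPM per 100 TPM of *Adipoq* in controls and at 19.8, 3.94 and 19.1 in Prdm16SMKO mice. Its span outside Prdm16SMKO 2 was 1.31-fold, against 8.45-fold in TPM.

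*Ucp1*, at 77.5, 47.9 and 55.0 TPM per 100 TPM of *Adipoq* in controls and at 60.8, 0 and 93.3 in Prdm16SMKO mice, showed the same pattern. It spanned 1.95-fold outside Prdm16SMKO 2, against 14.3-fold in TPM. The ratios of *Cox8b* were 137, 98.3 and 98.8 in controls and 86.4, 13.7 and 98.5 in Prdm16SMKO mice. Those of *Cox7a1* were 44.8, 39.7 and 49.5 in controls and 25.5, 0 and 38.5 in Prdm16SMKO mice. The spans of these 2 genes outside Prdm16SMKO 2 were 1.59-fold and 1.94-fold. *Ppargc1a* spanned 2.04-fold against *Adipoq* and 4.17-fold in TPM.

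*Dio2* and *Ebf2* varied more against *Adipoq* than in TPM. The ratio of *Dio2* to *Adipoq* spanned 6.66-fold outside Prdm16SMKO 2 while its TPM spanned 2.08-fold, and the ratio of *Ebf2* spanned 4.23-fold while its TPM spanned 2.01-fold. For both genes the ratio was lowest in Prdm16SMKO 3, the library with the most adipocyte RNA. *Adipoq* itself spanned 8.45-fold, so any gene with a small range in TPM has a wide ratio to it. The wide ratios therefore restate that these 2 genes varied little.

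**Figure D4:**
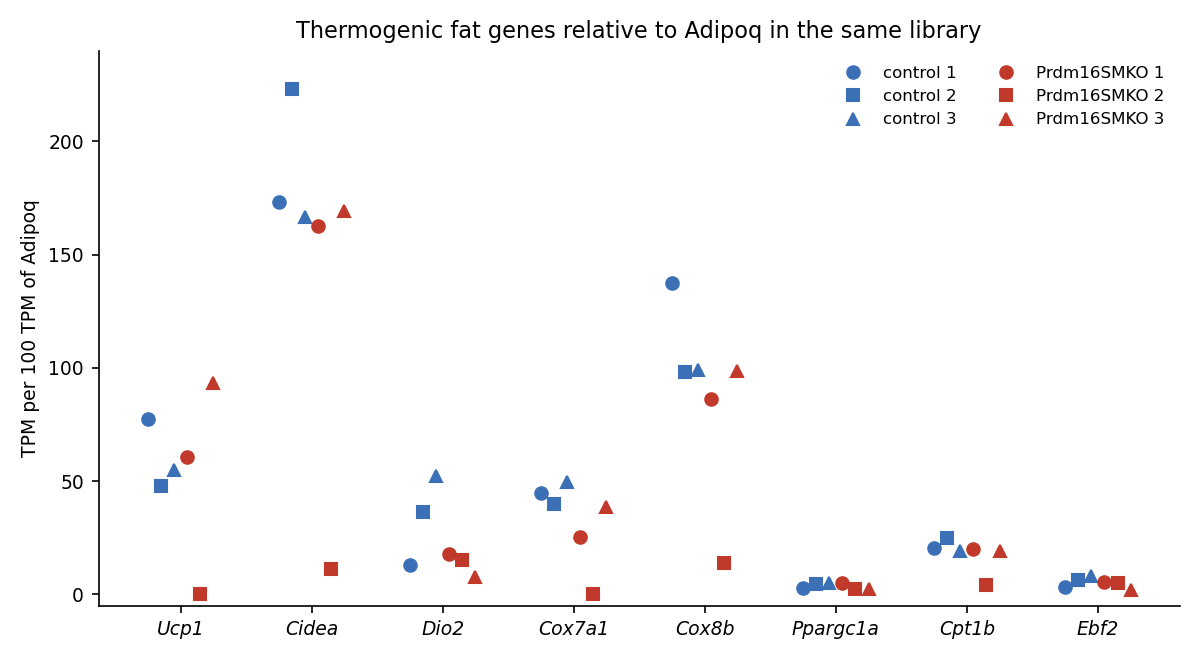
TPM of the 8 tested genes per 100 TPM of *Adipoq* in the same library, on a linear y axis, with controls in blue and Prdm16SMKO in red. *Cidea* lies between 163 and 223 in 5 libraries and at 11.3 in Prdm16SMKO 2.

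Prdm16SMKO 2 is described here with no test. Its adipocyte level of 4.16 was close to the 4.36 of Prdm16SMKO 1, and its *Adipoq* was higher. *Cidea* was nevertheless 12.3-fold lower in Prdm16SMKO 2 than in Prdm16SMKO 1, *Cox8b* 5.41-fold lower and *Cpt1b* 4.31-fold lower, while *Ucp1* and *Cox7a1* were listed at 0. *Dio2* (6.85 against 6.86 TPM) and *Ebf2* (2.19 against 2.16 TPM) were nearly equal in the same pair. On the log2(TPM + 0.5) scale 4 of the 8 genes were at least 4-fold lower in Prdm16SMKO 2 than in Prdm16SMKO 1 (*Ucp1*, *Cidea*, *Cox7a1* and *Cox8b*), as were 2.05% of all genes tested and 0 of the 15 adipocyte markers. *Ucp1* and *Cox7a1* were 2 of 3 genes listed at 0 in Prdm16SMKO 2 with at least 5 TPM in each of the other 5 libraries, the third being *Gm17122*. Such isolated zeros numbered 6 in control 3, 5 in Prdm16SMKO 1 and 0 or 1 in the remaining 3 libraries. Outside Prdm16SMKO 2 they were all gene models with Gm names, apart from *Rpl27-ps3* and *Tmsb15b2* in control 3. In a table without counts a value of exactly 0 can be a failed estimate, and this could not be checked here. For 6 of the 8 genes Prdm16SMKO 3 was the highest and Prdm16SMKO 2 the lowest library, as for 1.63% of all genes.

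Per unit of adipocyte level the genotypes were compared by exact permutation, which cannot go below p = 0.1 here, so the values are given for their size. The log2 difference, Prdm16SMKO minus control, was -1.34 for *Ucp1* (exact permutation p = 0.9), -1.05 for *Cidea* (exact permutation p = 0.7) and -1.77 for *Cox7a1* (exact permutation p = 0.4). It was -0.81 for *Dio2* (exact permutation p = 0.3) and between -0.79 and -0.09 for *Cox8b*, *Cpt1b*, *Ebf2* and *Ppargc1a* (exact permutation p = 0.5 to 0.8). Without Prdm16SMKO 2 the difference was 0.63 for *Ucp1*, 0.13 for *Cidea*, 0.03 for *Cox8b*, 0.12 for *Cpt1b* and -0.22 for *Cox7a1*.

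Markers of other cell types that use some of these genes were checked beside them, since *Cox7a1*, *Cox8b*, *Cpt1b* and *Ppargc1a* are also expressed in striated muscle. The 15 skeletal muscle markers, led by *Tnnc2* and *Myl1*, summed to 10.5 to 25.4 TPM in controls and to 135, 12.8 and 17.2 TPM in Prdm16SMKO 1 to 3, with 1 to 4 of them at 0 in each library. Prdm16SMKO 1, the library with the most muscle RNA, had neither the highest nor the second highest level of *Cox7a1*, *Cox8b* or *Cpt1b*, and had the second highest level of *Ppargc1a*. The 10 cardiomyocyte markers, led by *Ryr2* and *Actc1*, summed to 21.2 to 30.3 TPM over the 6 libraries, with 2 to 4 of them at 0. The 10 sympathetic neuron markers, led by *Npy* and *Dbh*, summed to 525 TPM in Prdm16SMKO 1, 86.1 TPM in control 2 and at most 3.27 TPM elsewhere, with up to 6 at 0.

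Prdm16SMKO 2 also had the highest sums of 2 other lists, with all their markers above 0. Fibroblast and preadipocyte markers, led by *Dcn* and *Col1a1*, summed to 1929 TPM in it and to 1100 to 1482 TPM elsewhere, and endothelial markers, led by *Pecam1* and *Egfl7*, to 563 TPM in it and to 324 to 397 TPM elsewhere. Genes enriched in white fat, led by *Retn* and *Nnat*, summed to 50.2 TPM in Prdm16SMKO 2, within the 37.2 to 90.0 TPM of the other libraries, and all 7 were above 0 in each. Single markers did not all follow the sums: *Col1a1* in Prdm16SMKO 2, at 432 TPM, was below all 3 controls, and *Egfl7*, at 89.8 TPM, was below controls 2 and 3. The part of these cell types in the levels of the thermogenic genes was not tested.

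For 3 of the genes a widely expressed counterpart of the same protein allowed a comparison within each library. *Cox7a1* made up 19.7, 8.42 and 10.1% of *Cox7a1* and *Cox7a2* together in controls and 7.10, 0 and 31.6% in Prdm16SMKO mice. *Cox8b* made up 15.3, 4.98 and 4.99% of *Cox8b* and *Cox8a* in controls and 5.50, 1.26 and 20.7% in Prdm16SMKO mice. *Cpt1b* made up 34.2, 17.3 and 11.8% of *Cpt1b* and the liver form *Cpt1a* in controls and 21.2, 5.26 and 57.2% in Prdm16SMKO mice. For all 3 genes the share, like the TPM, was highest in Prdm16SMKO 3, second highest in control 1 and lowest in Prdm16SMKO 2. Mean shares were 12.8 ± 6.10% and 12.9 ± 16.6% for *Cox7a1* (SD, n = 3 each, exact permutation p = 1), and the exact permutation p was 0.8 for *Cox8b* and *Cpt1b*. *Cox7a2* stayed between 94.4 and 151 TPM, *Cox8a* between 405 and 687 TPM and *Cpt1a* between 24.7 and 32.1 TPM.

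With these 3 counterparts, 16 relatives of the genes had a mean of at least 0.5 TPM. Of these 0 were called between genotypes, close to the 0.355% of all genes. *Ucp3*, an uncoupling protein relative found mainly in muscle and brown fat, rose with the adipocyte level (slope 1.44, adjusted p = 0.0227), and it was highest in Prdm16SMKO 3 at 9.63 TPM and lowest in Prdm16SMKO 2 at 0.49 TPM. *Elovl6*, the elongase of fatty acid synthesis, rose as well (slope 1.18, adjusted p = 0.0130), but stood at 3.93 TPM in Prdm16SMKO 2, above the 2.29 TPM of control 3. *Cidec*, the lipid droplet relative of *Cidea* and itself one of the adipocyte markers, was listed at 33.0 TPM in Prdm16SMKO 2 and at 31.9 TPM in Prdm16SMKO 1. *Ppargc1b* was listed at 2.28 to 5.12 TPM and *Pprc1* at 6.97 to 14.5 TPM, both relatives of *Ppargc1a*. *Ebf1*, at 26.9 to 42.1 TPM, was more abundant than *Ebf2* in every library, and *Ebf3* and *Ebf4* were at 1.22 to 4.59 TPM. *Elovl1*, *Elovl5*, *Cox7a2l* and *Cpt1c* had log2 fold changes between -0.32 and 0.24.

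A wider list of 50 brown and beige fat genes was measured alongside, of which 42 passed the minimum. Of these 0 were called between genotypes, against 0.355% of all genes, and 7 had an unadjusted p under 0.05, against 8.74% of all genes. In Prdm16SMKO mice 36 were higher and 6 lower, where 54.2% of all genes were higher. The median difference was 0.33 log2 units against 0.02 over all genes. Of the 42 genes 24 were highest in Prdm16SMKO 3, the library with the most adipocyte RNA. On the adipocyte level 29 of the 42 had a positive slope, where 36.2% of all genes did. The part of the fat in this shift was not tested. Groups did not overlap for 8 of the 42, where 12.8% of all genes did not overlap. The deleted gene *Prdm16* is on this list and is one of the 7 and of the 8. The 5 genes with the smallest p were *Ucp2*, *S100b*, *Zfp516*, *Tmem26* and *Tbx1*. *Ucp2*, a mitochondrial carrier related to *Ucp1*, was at 15.4 ± 1.20 TPM in controls and 30.9 ± 9.41 TPM in Prdm16SMKO mice (SD, n = 3 each, limma adjusted p = 0.225). *Zfp516*, a zinc finger factor that acts with PRDM16 at the *Ucp1* promoter, was at 15.7 ± 2.05 TPM in controls and 9.11 ± 2.35 TPM in Prdm16SMKO mice (SD, n = 3 each, limma adjusted p = 0.258). The beige markers *Tmem26* (log2 fold change -1.09, adjusted p = 0.337) and *Tbx1* (log2 fold change 0.79, adjusted p = 0.352) differed in sign, and *S100b* had a log2 fold change of 0.71 (adjusted p = 0.245).

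The adipocyte level called 10 genes of this list, all with positive slopes, where 0.45% of all genes were called with a positive slope. They were *Pparg*, the master regulator of fat cell formation (slope 0.93), *Nrg4*, a factor secreted by brown fat (slope 1.10), the adrenergic receptor gene *Adrb3* (slope 1.06), which is also one of the adipocyte markers, the fatty acid oxidation genes *Acadm* and *Acaa2* (slopes 0.66 and 0.92), *Slc27a2* (1.699), *Slc36a2* (1.44), *Otop1* (1.46), *Ucp3* (1.44) and *Clstn3* (1.51). The adipocyte level includes *Adrb3* itself, so the call of this gene is no separate result. None of these 10 slopes reached the 2.83 of *Ucp1*, but the slope of *Ucp1* was not called. The slope of *Ucp1* also rested on Prdm16SMKO 2, where this gene was listed at 0, and was 1.64 without this library. *Slc36a2*, a surface transporter of brown adipocytes, was listed at 3.80 TPM in Prdm16SMKO 2 and 45.3 TPM in Prdm16SMKO 3, its lowest and highest values. *Pparg*, by contrast, was at 7.26 TPM in Prdm16SMKO 2, above 2 of the controls. Prdm16SMKO 3 was highest and Prdm16SMKO 2 lowest for 13 of the 42 genes, *Ppara*, *Acaa2*, *Acadvl*, *Kcnk3* and *Otop1* among them. On the log2(TPM + 0.5) scale *Ckmt1* was the only gene of the 42 at least 4-fold lower in Prdm16SMKO 2 than in Prdm16SMKO 1. *Ckmt1* was high only in Prdm16SMKO 1, at 4.47 TPM. It was listed at 0.08 TPM in Prdm16SMKO 2 and at 0 to 0.35 TPM in controls. In TPM itself *Kng2* (20.1-fold), *Ppara* (6.65-fold) and *Slc27a2* (4.88-fold) were also lower by that much. In Prdm16SMKO 2 they stood near 0, at 0.07, 0.37 and 0.67 TPM, and *Slc27a2* was also at 0.67 TPM in control 3.

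The genes whose pattern over the 6 libraries was most like *Ucp1* were taken from 12124 others with a mean of at least 2 TPM, by Pearson's r of log2(TPM + 0.5), as a description. They were *Cidea* (r = 0.992), *Cox7a1* (r = 0.990), *Ccdc130* (r = 0.976), *Timm8a1* (r = 0.968) and *Cox8b* (r = 0.965). So 3 of the 5 came from the same set of 10, and *Cpt1b* had r = 0.943. *Ccdc130* spanned only 7.32 to 13.8 TPM and *Timm8a1* 3.78 to 8.83 TPM, each lowest in Prdm16SMKO 2 and highest in Prdm16SMKO 3. *Dio2* (r = 0.623) and *Ebf2* (r = 0.490) were less like *Ucp1*.

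*Ebf2* went with another set. Its nearest genes were *Ces1f* (r = 0.998), *Retn* (r = 0.992), *Nrros* (r = 0.991), *Slc12a7* (r = 0.990) and *Slc1a3* (r = 0.988). *Retn*, which encodes the white fat hormone resistin, was listed at 17.4 TPM in Prdm16SMKO 2 and 19.1 TPM in Prdm16SMKO 1. Prdm16SMKO 3 was the highest library for *Ebf2* and for all 5 of these genes.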

How the data were processed

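Abdominal aortas were profiled by RNA-seq as 3 control and 3 Prdm16SMKO libraries. The authors deposited TPM values for each gene, and the submitters' processing notes name cutadapt 2.3, STAR 2.7.8a, RSEM 1.3.3 and GRCm38. The annotation and any filter are not given in the sources used here, and the depth of single libraries is unknown. Table columns were matched to samples by their descriptions, and 0 pairs of libraries were identical.

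Expression was taken as log2(TPM + 0.5) and compared with limma 3.58.1 in R 4.3.3, with a trend on expression and two-sided Benjamini-Hochberg adjusted p-values across 15775 genes (average TPM of 0.5 or more). Genes were called at an adjusted p under 0.05, and 95% intervals are unadjusted. The slope fit added the adipocyte level to genotype. The script was tested on simulated data. Exact permutation tests used scipy 1.17.1. Gene positions come from GENCODE M21.

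The 10 genes and all lists were chosen with earlier results of these data known. Named genes were all 10, every called gene and the 5 of smallest p on the wider list, relatives of the 10, the 2 most abundant of each marker list and the 5 most like *Ucp1* and *Ebf2*. Alternatives were other added constants, minimums, scalings, weights, covariates and each library left out.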

Additional observations from a re-analysis of the deposited data

How the results depend on the processing

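The calls of the 8 tested genes between genotypes numbered 0 under all 15 alternatives (7 genes were tested at a minimum mean of 2 TPM, where *Ppargc1a* was left out). Leaving out 1 library at a time moved the log2 fold change from -2.54 to 1.66 for *Ucp1*, -1.73 to 1.16 for *Cidea*, -0.47 to 0.0297 for *Dio2*, -2.76 to 0.81 for *Cox7a1*, -1.31 to 1.07 for *Cox8b* and -0.83 to 1.15 for *Cpt1b*, so each changed sign. *Cpt1b* was also -0.81 with array weights and -0.86 with the adipocyte level as a covariate. Array weights gave control 1 a weight of 10.1 and the other libraries 0.41 to 0.95, so that fit leaned on 1 control. The 56 genes called between genotypes became 10 with no minimum, 153 with median-of-ratios scaling, 145 after rescaling without mitochondrial and ribosomal RNA genes, 494 with array weights and 5 to 61 with 1 library left out. A fit with the replicate number as a block called 4. The labels do not say whether the replicate numbers pair the libraries. Deviations of same-numbered libraries correlated at -0.13, -0.11 and 0.02, which cannot exclude a shared origin. The block called 0 of the 8 genes, as did every other setting, so this count does not bear on pairing.

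The slope of *Cox8b* was not called with *Adipoq* alone (1.51, limma adjusted p = 0.150), with no genotype term (1.55, 0.196) or with median-of-ratios scaling (1.87, 0.0803). That of *Cpt1b* was not called under the same settings (1.22, 1.33 and 1.52) or without *Plin4*, *Adrb3*, *Adig* and *Pck1* among the markers (1.53, adjusted p = 0.0547), an alternative chosen after seeing the data. With 1 library left out the slope ran from 1.64 to 3.54 for *Ucp1*, 1.27 to 2.45 for *Cidea*, 1.45 to 2.93 for *Cox7a1*, 1.47 to 2.21 for *Cox8b*, 1.19 to 1.77 for *Cpt1b* and -0.32 to 0.51 for *Dio2*, which was negative only without Prdm16SMKO 3. Genes called on the adipocyte level numbered 73, 36 with *Adipoq* alone and 0 to 309 with 1 library left out. It was control 3 whose removal gave 0, with 1589 genes at an unadjusted p under 0.05.

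Per adipocyte level, leaving out 1 library gave -2.58 to 0.63 for *Ucp1*, -1.77 to 0.13 for *Cidea*, -1.35 to 0.0334 for *Cox8b*, -0.86 to 0.12 for *Cpt1b*, -0.30 to 0.0922 for *Ppargc1a* and -0.58 to 0.13 for *Ebf2*. The *Elovl3* difference ran from -0.20 to 0.21 TPM. Differences in share ran from -9.21 to 6.59 percentage points for *Cox7a1*, -5.04 to 4.66 for *Cox8b* and -7.91 to 18.1 for *Cpt1b*. The cause of these changes was not tested. With unknown depth, no limit of detection could be given for values listed at 0.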
